A study of Homo sapiens with 6 samples.

Results

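Splicing factor and small nuclear ribonucleoprotein (snRNP) genes were taken from a table of read counts as the protein-coding rows whose names start with SNRP, SRSF, HNRNP, SF3A or SF3B, or with LSM and a number. That rule found 73 of 58735 genes. They were read in poly-T selected RNA of 786-O, an established line of human kidney cancer cells, in 3 libraries whose cells carried a short hairpin that targets CBX7 (sh-CBX7) and 3 whose cells carried a control hairpin (sh-Control). CBX7 belongs to the chromobox proteins of Polycomb complexes, which keep genes silent through histone marks. The labels name no second hairpin against CBX7, no clone and no time after the hairpin was introduced, so the effects of that hairpin on other transcripts and the effects of losing CBX7 cannot be told apart. By its title, the series asks how RNF26 and CBX7 act on TNF signalling, on growth and on the response to kinase inhibitors in clear cell kidney cancer.

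Introns are removed by the spliceosome, which is built from the U1, U2, U4, U5 and U6 snRNPs. A ring of Sm proteins sits on the small nuclear RNA of each of them except U6, which carries a ring of LSm proteins. U1 reads the 5' splice site, and U2, with its SF3A and SF3B complexes, reads the branch point. SR proteins mostly promote the use of an exon they bind, while heterogeneous nuclear ribonucleoproteins (hnRNPs) coat the nascent transcript and often repress exons. Proliferating cells make all of these in quantity.

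Total counts were 16473407 to 18868874 in the sh-CBX7 libraries and 16384151 to 18006814 in the sh-Control libraries. CBX7 had 143, 111 and 142 counts in the sh-CBX7 libraries and 203, 240 and 183 in the sh-Control libraries, a log2 fold change of -0.71 (edgeR adjusted p = 5.41e-05, SE 0.13), so the target was lower but still present. The epithelial keratins KRT8 and KRT18, PAX8 of the renal tubule and the cadherin CDH2 were read in every library and themselves changed, with log2 fold changes of 0.44, 0.43, -0.32 and 0.38. PAX2 was called lower, at -0.49, and VIM was not called, at -0.04 (edgeR adjusted p = 0.498). The immune genes PTPRC and CD3E and the endothelial gene CDH5 had 0 counts in all 6, and CD68 had 1 count in 1 library. The endothelial gene PECAM1 had 48, 35 and 44 counts in sh-CBX7 and 19, 26 and 30 in sh-Control libraries (log2 fold change 0.70, edgeR adjusted p = 0.0349). The fibroblast genes LUM and COL1A1 changed by 0.73 and -1.03, at means of at most 8.35 CPM, and DCN had at most 3 counts in a library. The part of these markers in the results was not tested. CA9 and NDUFA4L2, genes that clear cell carcinomas usually express strongly, reached at most 25 and 2 counts in a library. Among replicates, sh-Control replicate 1 stood farthest from the others, with a chi-square per gene of 9.23 and 5.78 against its 2 fellow libraries, where the other pairs gave 2.85 to 4.32. The libraries are of bulk RNA, so a change in every cell and a larger change in some of them cannot be told apart.

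Transcripts of the splicing factor and snRNP genes were, on balance, lower in sh-CBX7 cells. Of the 67 genes with enough counts to test, 36 fell and 5 rose at an edgeR adjusted p below 0.05, and 26 passed in neither direction. The 41 called are 61.2% of those tested, where 53.3% of all tested genes were called. The 36 that fell are 53.7% of those tested, where 27.2% of all 14573 tested genes fell. The 5 that rose are 7.46%, where 26.1% of all tested genes rose. The median log2 fold change was -0.21 over the splicing genes and -0.01 over all tested genes. Because most splicing genes are abundant, the same shares were taken over abundant genes alone. Among the 9092 protein-coding genes whose mean was 10 CPM or more (counts scaled to a common library size after TMM normalization), 63.6% were called, 34.6% fell, 28.9% rose and the median log2 fold change was -0.04.

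Most of the falls were small. A fall of at least 0.5 on the log2 scale was seen in 11 of the 67 genes (16.4%) and in 13.4% of all tested genes, shares that are close to each other. The largest rise was 0.43, in LSM14A, whereas 14.5% of all tested genes rose by 0.5 or more. In 39 of the 67 genes every sh-CBX7 library lay below every sh-Control library, and in 6 every one lay above; over all tested genes these shares were 29.9% and 29.1%. Together the 73 genes took 1.11% ± 0.016 of the counts in sh-CBX7 libraries and 1.32% ± 0.039 in sh-Control libraries (SD, n = 3 each). The ranges of that share, 1.09% to 1.12% in sh-CBX7 and 1.27% to 1.35% in sh-Control, did not overlap, and the exact two-sided permutation test gave p = 0.1, the smallest p that 3 against 3 libraries allow.

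**Figure D1:**
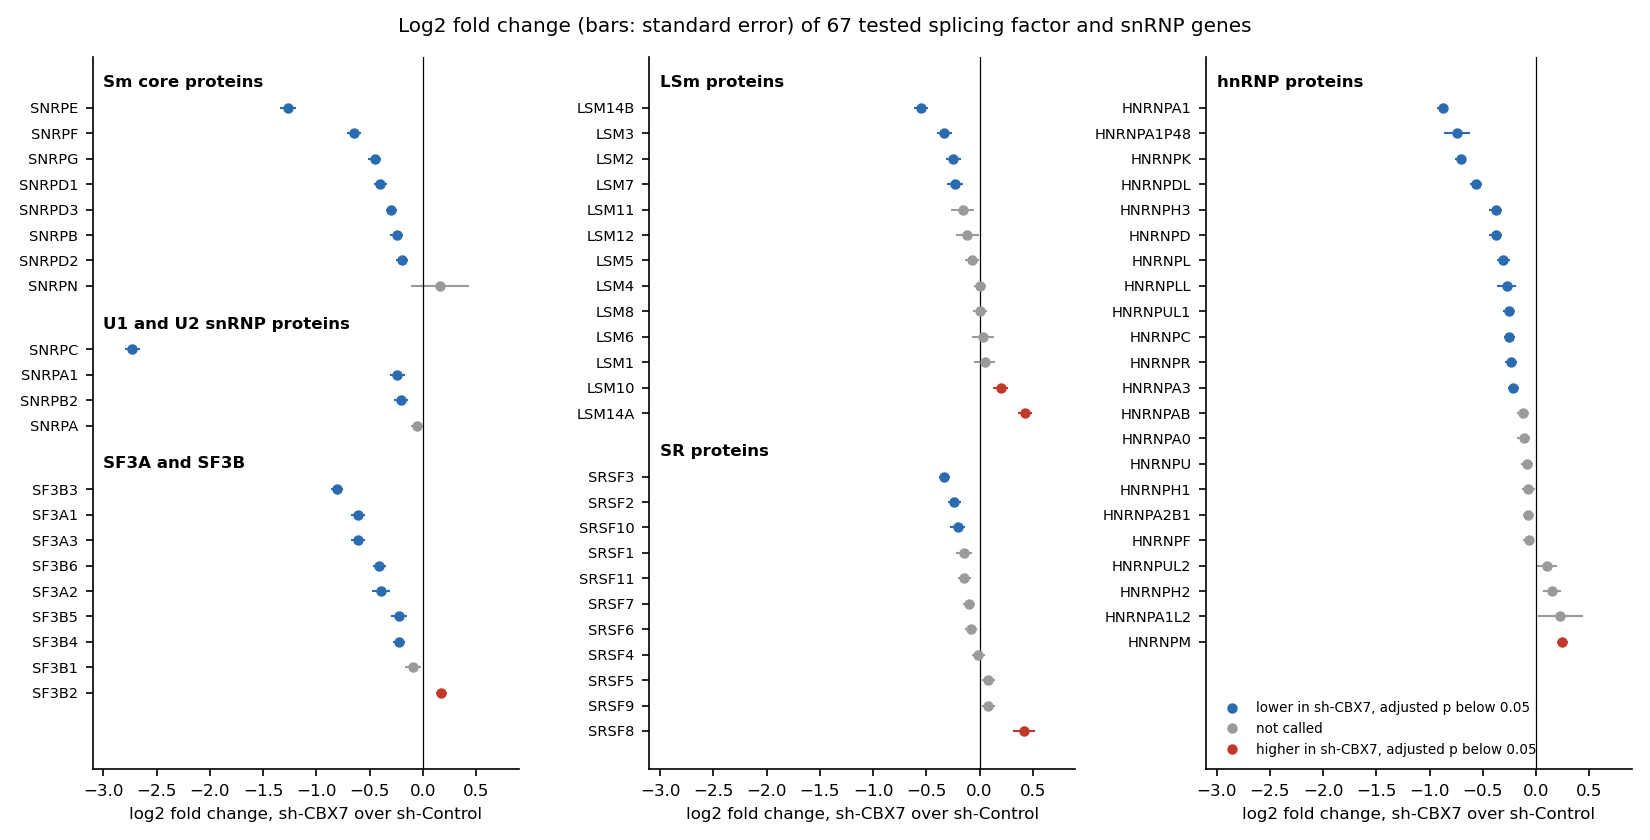
Log2 fold change (sh-CBX7 over sh-Control, horizontal axis) of the 67 tested splicing factor and snRNP genes, grouped by role. Bars show the standard error of the edgeR fit, and colour gives the call. Of the 67 genes, 36 fell and 5 rose; SNRPC lies farthest from 0 at -2.73, followed by SNRPE at -1.27.

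The 6 remaining genes could not be tested. HNRNPCL1, HNRNPCL2, HNRNPCL3 and HNRNPCL4, relatives of HNRNPC, had 0 counts in all 6 libraries, which allows at most 0.159 to 0.183 CPM per library at this depth (3 counts, counting error only). SRSF12 had 1, 0 and 2 counts in the sh-CBX7 libraries and 0 in each sh-Control library. The read-through gene HNRNPUL2-BSCL2 had 1 count, in sh-Control replicate 1.

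Short sequences in the 3' untranslated regions (UTRs) are shown because 4 of the 11 genes with the largest falls shared one. The 7 bases CTCTGCT had been singled out earlier from these same fold changes over all genes, so their presence beside a fall lends no support. They occurred in the 3' UTR of 7 of the 66 splicing genes with an annotated 3' UTR of at least 50 bases (10.6%), and in 20.9% of 12132 genes. Each site below is 29 bases long, on the sense strand from GENCODE 29 transcripts on GRCh38, with the 7 bases in capitals. HNRNPA0 holds 2 matches, of which the first is printed.
SF3B3, chr16:70574930-70574958, plus strand: agaagaaacatCTCTGCTgctgaaatcaa
SF3A1, chr22:30332423-30332451, minus strand: ggaccacactgCTCTGCTccaccagacca
HNRNPA1, chr12:54286898-54286926, plus strand: tagtcattcacCTCTGCTtatatgaatac
HNRNPK, chr9:83969261-83969289, minus strand: agccaacattcCTCTGCTtcataggtgtt
SNRPB2, chr20:16741866-16741894, plus strand: ttgattcagtcCTCTGCTgagtaaaccat
HNRNPAB, chr5:178210875-178210903, plus strand: caggtgggaggCTCTGCTtcctgctgccg
HNRNPA0, chr5:137750933-137750961, minus strand: gttaaatactaCTCTGCTtgacttactca

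SF3B3, SF3A1, HNRNPA1, HNRNPK and SNRPB2 fell, and HNRNPAB and HNRNPA0 passed in neither direction, both with a log2 fold change of -0.12. HNRNPAB was called lower without sh-Control replicate 2 (-0.16), HNRNPA0 without sh-CBX7 replicate 3 (-0.16). The median log2 fold change was -0.61 in the 7 genes that hold the sequence and -0.20 in the 59 that do not. A fall of at least 0.5 was seen in 4 of the 7 and in 6 of the 59. The holders also had longer 3' UTRs, with a median of 2543 bases against 795 bases in the genes without it, and the part of that length in the difference was not tested. Over all genes with an annotated 3' UTR, 40.4% of holders and 27.1% of the others fell, with median 3' UTR lengths of 2502 and 900 bases. The 7 bases were chosen from these same fold changes, so none of these differences lends support to a role for them. SNRPC and SNRPE, with the largest falls, do not hold the 7 bases in the 3' UTR searched.

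**Figure D2:**
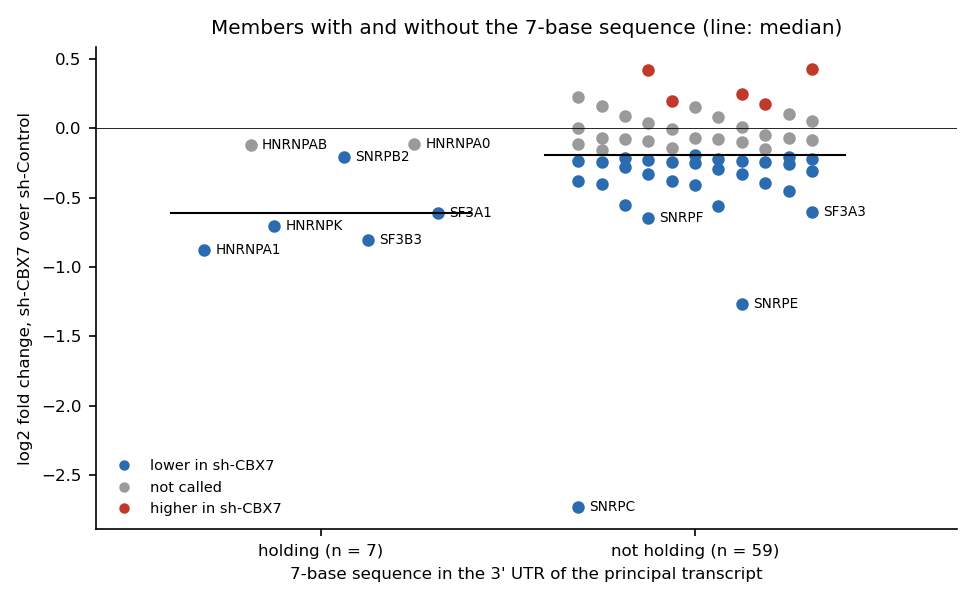
Log2 fold change (sh-CBX7 over sh-Control) of splicing factor and snRNP genes whose 3' UTR holds CTCTGCT (left, 7 genes) and of those whose 3' UTR does not (right, 59 genes); each point is a gene, its colour the edgeR call, and the lines are medians. The 7 holders lie between -0.88 and -0.12, and the genes without the sequence reach from -2.73 to 0.43. The sequence was chosen from these same fold changes, so the contrast is a description only.

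The largest change was in a U1 gene. SNRPC encodes U1-C, the zinc finger protein with which U1 holds the pairing between its RNA and the 5' splice site (ENSG00000124562, GRCh38 chr6:34757406-34773794, plus strand). SNRPC had 37.7, 31.7 and 33.5 CPM in the sh-CBX7 libraries, against 233, 217 and 234 CPM in the sh-Control libraries. The groups lay far apart, and no sh-CBX7 library came near the lowest sh-Control library. SNRPC fell to 34.3 ± 3.10 CPM in sh-CBX7 cells, against 228 ± 9.60 CPM in sh-Control cells (SD, n = 3 each), which is 6.65-fold lower (log2 fold change -2.73, edgeR adjusted p = 1.89e-18, SE 0.07). The other U1 gene in the list was not called. SNRPA, for the U1-A protein which binds a loop of U1 RNA, averaged 112 ± 2.34 CPM in sh-CBX7 and 116 ± 4.18 CPM in sh-Control, with a log2 fold change of -0.05 and a 95% interval of -0.17 to 0.07. Within a library SNRPC had 0.306 ± 0.028 counts per count of SNRPA in sh-CBX7 and 1.96 ± 0.089 in sh-Control. This and the other ratios given here were chosen after the values had been seen and are descriptions only.

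Both genes of U2-specific proteins fell by a small amount. SNRPA1 (U2-A') had a log2 fold change of -0.24 (edgeR adjusted p = 0.00559, SE 0.07). Its partner on U2 RNA, SNRPB2 (U2-B''), had one of -0.21 (edgeR adjusted p = 0.0127, SE 0.07). The SNRPB2 fall was not called without sh-CBX7 replicate 3, sh-Control replicate 2 or sh-Control replicate 3, at log2 fold changes of -0.19, -0.17 and -0.19.

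**Figure D3:**
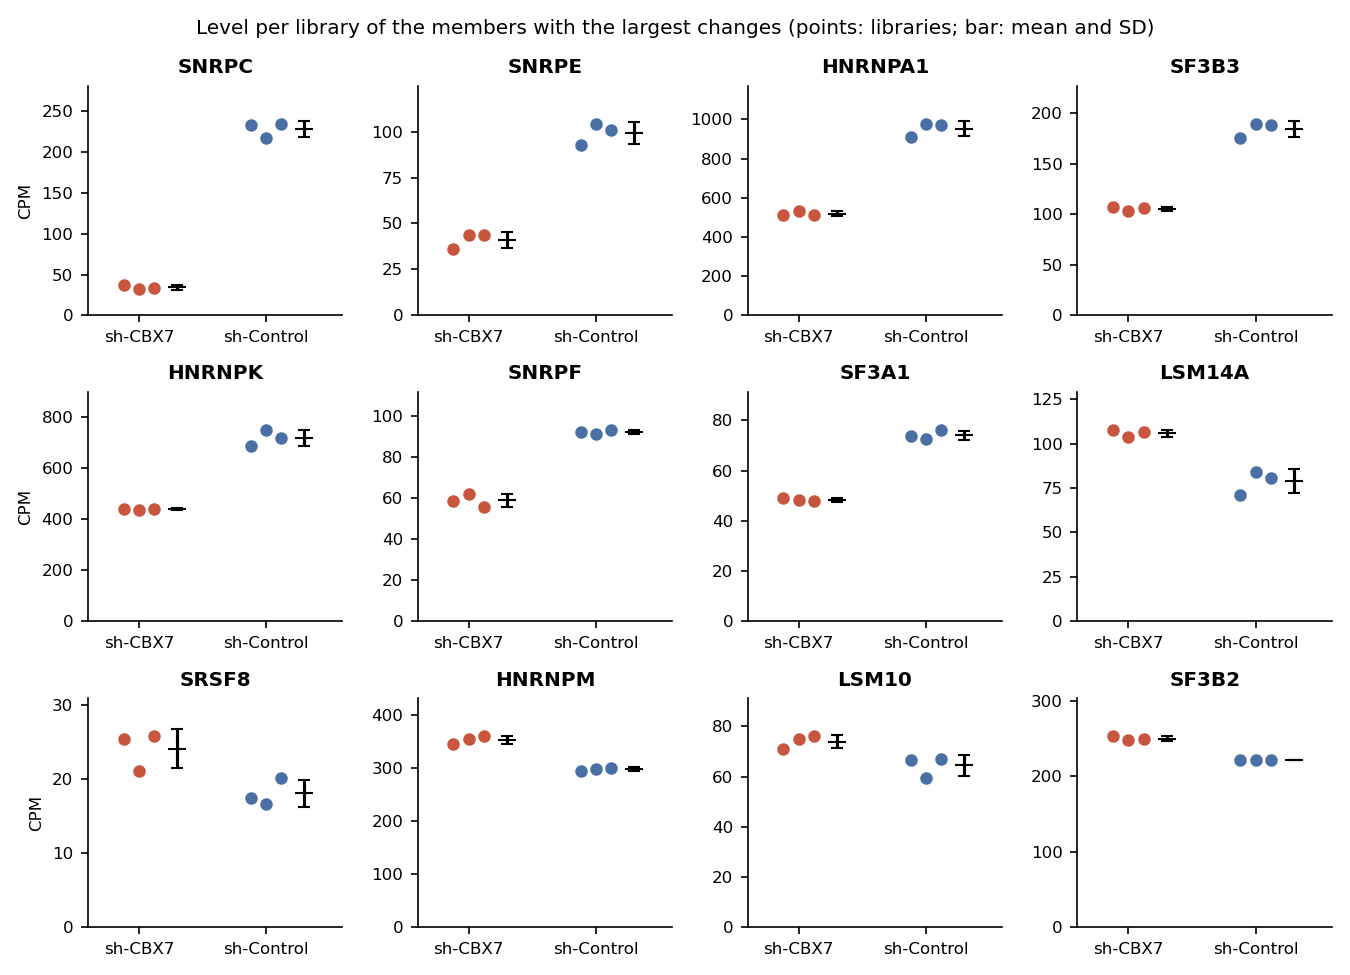
CPM in each library (points) with the mean and SD of each group (bars, n = 3), sh-CBX7 left and sh-Control right. The panels are the called members with the largest falls and rises, except HNRNPA1P48, which is left out. Each vertical axis starts at 0 and has its own scale. SNRPC sits between 31.7 and 37.7 CPM in sh-CBX7 and between 217 and 234 CPM in sh-Control, and no panel has overlapping groups.

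All 7 general Sm core genes fell, and SNRPN, which encodes a form of the SNRPB protein made mainly in the brain, was not called at about 2 CPM. With SNRPN counted, 87.5% of the Sm genes fell, against 27.2% of all tested genes. The core proteins B, D1, D2, D3, E, F and G close into a ring of 7 around the RNA. SNRPE fell most, with 36.2, 43.8 and 43.6 CPM in the sh-CBX7 libraries, against 92.6, 104 and 101 CPM in the sh-Control libraries. Its groups were far apart, at 2.41-fold lower in sh-CBX7 (log2 fold change -1.27, edgeR adjusted p = 4.20e-12, SE 0.08). SNRPF, which enters the ring next to SNRPE as part of an E, F and G unit, had 58.9, 62.1 and 55.8 CPM in sh-CBX7 and 92.1, 91.3 and 93.1 CPM in sh-Control libraries (log2 fold change -0.65, edgeR adjusted p = 1.58e-08, SE 0.06). SNRPG, the last of that unit, had a log2 fold change of -0.45. SNRPE, SNRPF and SNRPG were thus the 3 Sm genes with the largest falls, each with groups that did not overlap.

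The other Sm genes fell less. SNRPD1 had a log2 fold change of -0.40, SNRPD3 of -0.30, SNRPB of -0.25 and SNRPD2 of -0.20. SNRPB had the most counts of the Sm genes, with 388, 385 and 394 CPM in sh-CBX7 and 514, 421 and 451 CPM in sh-Control libraries; sh-Control replicate 1 was the highest of the 6 and the groups did not overlap. SNRPE had 0.106 ± 0.011 counts per count of SNRPB in sh-CBX7 and 0.217 ± 0.034 in sh-Control. Per kilobase of annotated gene length, SNRPE made up 4.29% ± 0.36 of the summed level of the 7 ring genes in sh-CBX7 and 8.17% ± 0.82 in sh-Control, whereas SNRPB made up 46.8% ± 0.96 in sh-CBX7 and 43.7% ± 2.7 in sh-Control. SNRPD3 shares its locus with GGT1 on the same strand and with GUCD1 on the other, and reads of overlapping genes may be split between them.

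Of the 9 SF3A and SF3B genes, 7 fell, SF3B2 rose and SF3B1 was not called. The share that fell was 77.8%, against 27.2% of all tested genes. The 3 subunits of SF3A, which bridges U2 and the branch point region, all fell. SF3A1 had 49.2, 48.1 and 47.9 CPM in sh-CBX7 libraries, against 73.7, 72.4 and 76.0 CPM in sh-Control libraries (log2 fold change -0.61, edgeR adjusted p = 3.92e-08, SE 0.06). SF3A3 moved as much, at 66.8 ± 3.84 CPM in sh-CBX7 and 102 ± 2.87 CPM in sh-Control (log2 fold change -0.61, SE 0.06), and SF3A2 less, at -0.40. In each of the 3 the groups did not overlap. SF3A2 lies across PLEKHJ1, a gene on the opposite strand that had more counts, 13402 over the 6 libraries against 3625 for SF3A2.

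The SF3B complex clasps the branch point adenosine. SF3B3, a large scaffold subunit made of beta propellers, fell most of the SF3 genes, with 107, 103 and 106 CPM in the sh-CBX7 libraries, against 175, 189 and 188 CPM in the sh-Control libraries (log2 fold change -0.80, edgeR adjusted p = 9.11e-11, SE 0.06). SF3B2, which joins SF3B to SF3A and had the most counts of the SF3 genes, went the other way, with 253, 247 and 249 CPM in the sh-CBX7 libraries, against 221, 222 and 221 CPM in the sh-Control libraries. That rise was small beside the fall of SF3B3, yet the groups lay apart with little spread (log2 fold change 0.17, edgeR adjusted p = 0.00791, SE 0.05). SF3B3 had 0.422 ± 0.0048 counts per count of SF3B2 in sh-CBX7 and 0.831 ± 0.033 in sh-Control. SF3B6, which touches the branch point adenosine, fell with a log2 fold change of -0.41, SF3B5 with -0.23 and SF3B4 with -0.22. The SF3B5 fall was not called without sh-CBX7 replicate 2 (-0.21), sh-CBX7 replicate 3 (-0.20) or sh-Control replicate 1 (-0.13). SF3B1, the subunit most often mutated in blood cancers and bound by splicing inhibitors, averaged 172 ± 5.04 CPM in sh-CBX7 and 183 ± 24.5 CPM in sh-Control, a log2 fold change of -0.09 with a 95% interval of -0.25 to 0.06. Its lowest sh-Control value was that of replicate 1, and without that library SF3B1 was called lower, at -0.20 (edgeR adjusted p = 0.00151).

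The promoters of SNRPC and the 3 SF3A genes, which all fell, are printed as examples. All 4 hold 2 of the 4 promoter elements searched, CCGGAAG and the GC box. They are not alone in this. HNRNPD, HNRNPLL, SF3B4, SF3B6 and SNRPD2, which also fell, hold both, and so do HNRNPF, LSM5 and SRSF4, which were not called. The sequence CCGGAAG, the core that ETS family factors bind, occurred on either strand (CTTCCGG on the other) within 250 bases before and 50 bases after the RefSeq start in 20 of the 59 tested splicing genes with such a window (33.9%) and in 22.5% of 9920 protein-coding genes. Of the 20 with it, 14 fell, 1 rose and 5 were not called, and of the 39 without it, 17 fell, 3 rose and 19 were not called. Among all tested genes 27.2% fell and 26.1% rose, and these shares were not split by the sequence. The median log2 fold change of the splicing genes was -0.25 with the sequence and -0.14 without it, and that difference was not tested. Over all genes the median log2 fold change was -0.03 with the sequence and -0.03 without it. The windows are 300 bases of GRCh38.p14, 5' to 3' on the gene's strand, with each match in capitals; in SNRPC matches on both strands overlap in 1 run. A match describes the letters and is not a measured binding site.
SNRPC, chr6:34757255-34757554, plus strand: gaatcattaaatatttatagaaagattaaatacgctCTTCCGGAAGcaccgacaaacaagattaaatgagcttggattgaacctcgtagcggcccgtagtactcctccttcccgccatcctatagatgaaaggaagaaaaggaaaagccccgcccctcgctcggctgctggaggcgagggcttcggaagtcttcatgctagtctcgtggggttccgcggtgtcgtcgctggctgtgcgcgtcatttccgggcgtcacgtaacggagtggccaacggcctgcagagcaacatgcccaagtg
SF3A1, chr22:30356845-30357144, minus strand: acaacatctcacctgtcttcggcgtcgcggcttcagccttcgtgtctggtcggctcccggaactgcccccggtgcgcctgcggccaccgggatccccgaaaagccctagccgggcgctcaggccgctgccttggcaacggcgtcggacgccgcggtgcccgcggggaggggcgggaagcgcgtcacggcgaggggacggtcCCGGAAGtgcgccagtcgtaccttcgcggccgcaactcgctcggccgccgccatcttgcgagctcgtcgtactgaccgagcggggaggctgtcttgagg
SF3A2, chr19:2236574-2236873, plus strand: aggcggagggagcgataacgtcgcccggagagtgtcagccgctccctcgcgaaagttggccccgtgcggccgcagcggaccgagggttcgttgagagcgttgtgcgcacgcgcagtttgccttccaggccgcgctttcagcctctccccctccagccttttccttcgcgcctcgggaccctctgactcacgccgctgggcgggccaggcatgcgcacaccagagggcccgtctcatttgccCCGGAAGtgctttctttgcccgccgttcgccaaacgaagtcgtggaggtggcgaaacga
SF3A3, chr1:37989973-37990272, minus strand: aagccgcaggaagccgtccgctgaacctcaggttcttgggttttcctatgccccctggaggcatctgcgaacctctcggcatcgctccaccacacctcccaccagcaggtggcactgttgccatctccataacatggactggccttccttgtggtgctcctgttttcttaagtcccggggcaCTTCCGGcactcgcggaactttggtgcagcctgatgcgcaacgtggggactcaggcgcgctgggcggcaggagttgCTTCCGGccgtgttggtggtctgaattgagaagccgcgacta

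The 3 other elements were searched on both strands in the same windows, and the differences in share were not tested. The E-box CACGTG, which reads the same on both strands, was in 13.6% of the splicing genes and in 12.6% of all genes. The CCAAT box was in 50.8% of the splicing genes and in 43.4% of all genes. The GC box, searched as GGGCGG, was in 69.5% of the splicing genes and in 77.6% of all genes. Of the 41 splicing genes with a GC box 23 fell and 18 were not called. Of the 18 without it 8 fell, 4 rose and 6 were not called. With an E-box 5 fell, 1 rose and 2 were not called, and without it 26 fell, 3 rose and 22 were not called. With a CCAAT box 15 fell, 2 rose and 13 were not called, and without it 16 fell, 2 rose and 11 were not called. Over all genes the median log2 fold change was -0.03 with and without each of these 3 elements. The shares that fell were not split by them over all genes.

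The 13 LSm genes were mixed: 4 fell, 2 rose and 7 were not called. The 30.8% that fell are near the 27.2% of all tested genes, and 15.4% rose, where 26.1% of all tested genes rose. LSM2 to LSM8 form the ring on U6 RNA, and LSM1 to LSM7 form the cytoplasmic ring that promotes removal of the cap during mRNA decay. Of these 8 ring genes, LSM3 (-0.33), LSM2 (-0.24) and LSM7 (-0.23) fell on the log2 scale, LSM7 no longer being called without sh-CBX7 replicate 2 (-0.21). LSM4, which had the most counts of the LSm genes, had 382, 365 and 369.9 CPM in sh-CBX7 and 396, 339 and 379 CPM in sh-Control libraries, with overlapping groups and a log2 fold change of 0.003 with a 95% interval of -0.12 to 0.12. LSM8, found only in the U6 ring, and LSM1, found only in the decay ring, had log2 fold changes of 0.01 and 0.05, with 95% intervals of -0.13 to 0.15 and -0.16 to 0.26.

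LSM14A and LSM14B, paralogs that sit in cytoplasmic granules of untranslated mRNA, went in opposite directions. LSM14A rose, with 107, 103 and 106 CPM in the sh-CBX7 libraries, against 71.1, 84.1 and 80.9 CPM in the sh-Control libraries (log2 fold change 0.43, edgeR adjusted p = 1.20e-05, SE 0.07). LSM14B fell, with 54.0, 54.5 and 49.8 CPM in the sh-CBX7 libraries, against 80.5, 73.0 and 78.4 CPM in the sh-Control libraries (log2 fold change -0.55, edgeR adjusted p = 4.11e-07, SE 0.07). In neither gene did the groups overlap, and LSM14A had 2.01 ± 0.12 counts per count of LSM14B in sh-CBX7 and 1.02 ± 0.14 in sh-Control. LSM10, which with LSM11 replaces 2 Sm proteins on the U7 snRNP that processes histone mRNA, had 70.9, 74.8 and 76.0 CPM in sh-CBX7 and 66.7, 59.5 and 67.1 CPM in sh-Control libraries. Its rise was small (log2 fold change 0.20, edgeR adjusted p = 0.0169, SE 0.07) and was no longer called without sh-CBX7 replicate 2, sh-CBX7 replicate 3 or sh-Control replicate 2, at log2 fold changes of 0.19, 0.18 and 0.14 (edgeR adjusted p = 0.0624, 0.0773 and 0.106). LSM11 itself, at -0.16, was not called. LSM12, at -0.11, was not called either, but was called lower without sh-Control replicate 1 (-0.21).

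**Figure D4:**
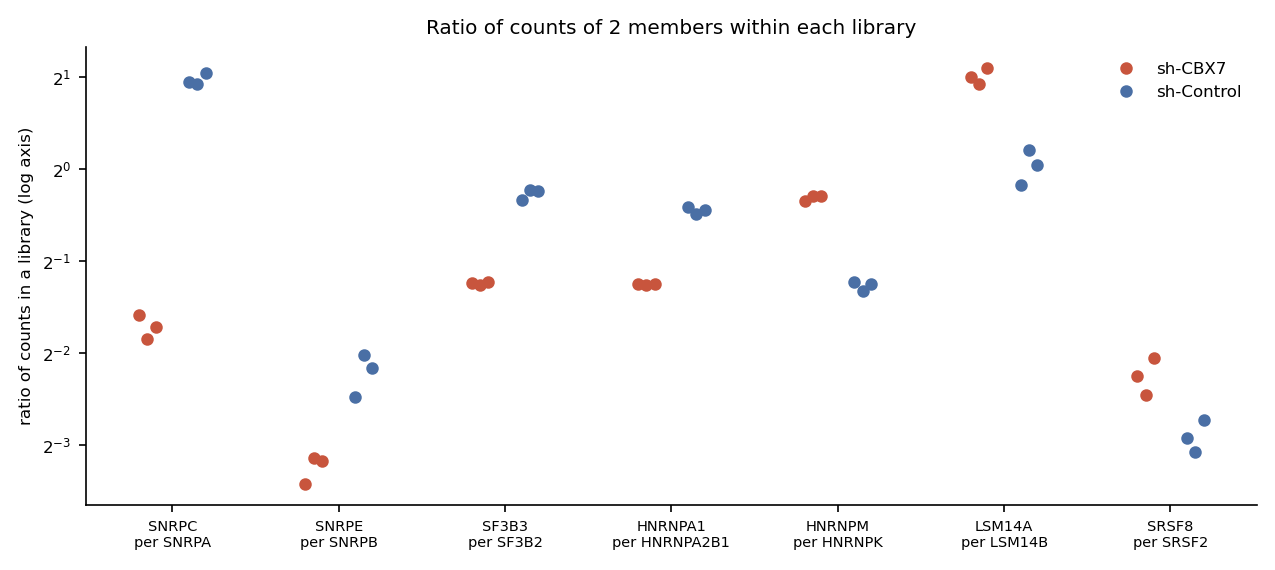
Ratio of the counts of pairs of splicing genes within each library (points, sh-CBX7 left and sh-Control right), on a log axis. SNRPC per SNRPA averages 0.306 in sh-CBX7 and 1.96 in sh-Control, and LSM14A per LSM14B 2.01 in sh-CBX7 and 1.02 in sh-Control.

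Of 11 tested SR protein genes 3 fell, 1 rose and 7 were not called. The share that fell, 27.3%, is near the 27.2% of all tested genes, and 46.7% of all tested genes were not called. The SR genes had a median log2 fold change of -0.10. SRSF3, a small SR protein whose gene had the most counts of the SR genes, had 257, 257 and 243 CPM in the sh-CBX7 libraries, against 317, 324 and 310.1 CPM in the sh-Control libraries. It was the SR gene with the largest fall, and its groups did not overlap (log2 fold change -0.33, edgeR adjusted p = 1.85e-05, SE 0.05). SRSF2, which marks nuclear speckles, and SRSF10, a repressor in its dephosphorylated form, fell with log2 fold changes of -0.24 and -0.21, and SRSF10 was no longer called without sh-CBX7 replicate 3 (-0.18) or sh-Control replicate 2 (-0.14). SRSF8, a close relative of SRSF2, rose instead, with 25.4, 21.1 and 25.7 CPM in the sh-CBX7 libraries, against 17.4, 16.7 and 20.1 CPM in the sh-Control libraries. The lowest SRSF8 value in sh-CBX7 lay just above the highest in sh-Control (log2 fold change 0.42, edgeR adjusted p = 0.00225, SE 0.11), and its sequence is close enough to SRSF2 that reads could be assigned to either. SRSF1, the founding SR protein, had a log2 fold change of -0.15 with a 95% interval of -0.31 to 0.01, and SRSF4 had one of -0.01 with an interval of -0.14 to 0.12. Without sh-Control replicate 1, SRSF1 (-0.17), SRSF7 (-0.13) and SRSF11 (-0.18) were called lower and SRSF9 (0.14) higher. SRSF1 was also called lower without sh-CBX7 replicate 1 (-0.22), and SRSF11 with the replicate number as a block in the fit (-0.14).

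Of the 22 tested hnRNP genes 12 fell, HNRNPM rose and 9 were not called. Those that fell are 54.5% of the tested hnRNP genes, where 27.2% of all tested genes fell. HNRNPA1, which represses exons and shuttles with mRNA to the cytoplasm, had 511, 533 and 510.2 CPM in the sh-CBX7 libraries, against 908, 975 and 971 CPM in the sh-Control libraries (log2 fold change -0.88, edgeR adjusted p = 2.74e-12, SE 0.05). HNRNPK, which binds runs of C, had 440.3, 437 and 442 CPM in the sh-CBX7 libraries, against 688, 748 and 718 CPM in the sh-Control libraries (log2 fold change -0.71, edgeR adjusted p = 1.02e-10, SE 0.05). In both the groups lay far apart. Both hold the 3' UTR sequence printed above, which was chosen from these fold changes, as do HNRNPAB and HNRNPA0, which were not called. HNRNPA1P48, a near copy of HNRNPA1 that the table lists as protein-coding, had 6.63, 7.67 and 7.05 CPM in sh-CBX7 and 12.1, 11.8 and 11.8 CPM in sh-Control libraries (log2 fold change -0.74). Its counts per count of HNRNPA1, 0.0137 ± 0.00071 in sh-CBX7 and 0.0125 ± 0.00072 in sh-Control, overlapped between groups, and its reads cannot be told from those of HNRNPA1 with certainty.

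The hnRNP gene with the most counts was not called. HNRNPA2B1, which binds A- and G-rich motifs, had 1213, 1278 and 1215 CPM in sh-CBX7 and 1205, 1371 and 1323 CPM in sh-Control libraries, with overlapping groups and a log2 fold change of -0.07 (95% interval -0.18 to 0.04, edgeR adjusted p = 0.263). Without sh-Control replicate 1, its lowest sh-Control value, that log2 fold change was -0.13 and was called. HNRNPA1 had 0.419 ± 0.0021 counts per count of HNRNPA2B1 in sh-CBX7 and 0.733 ± 0.021 in sh-Control. HNRNPA2B1 lies beside CBX3 and NFE2L3, which overlap it on the opposite strand.

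HNRNPM, a GU-binding protein known for its part in the splicing of mesenchymal isoforms, was called higher. It had 345, 356 and 360.3 CPM in the sh-CBX7 libraries, against 294, 298 and 301 CPM in the sh-Control libraries. The rise was small and the groups did not overlap (log2 fold change 0.25, edgeR adjusted p = 3.48e-04, SE 0.05). HNRNPM had 0.804 ± 0.018 counts per count of HNRNPK in sh-CBX7 and 0.415 ± 0.015 in sh-Control.

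The other called hnRNP genes fell by 0.21 to 0.56 on the log2 scale. HNRNPDL and HNRNPD, paralogs that bind AU-rich RNA and lie close together on chromosome 4, fell by 0.56 and 0.38. HNRNPH3, of the G-run binding H and F family, fell by 0.38, while its relatives HNRNPH1, HNRNPH2 and HNRNPF were not called, at -0.08, 0.15 and -0.07. With upper quartile normalization HNRNPH2 was called higher, at 0.20 (edgeR adjusted p = 0.0451). HNRNPL, which binds CA repeats, and its paralog HNRNPLL fell by 0.31 and 0.28, HNRNPLL no longer being called without sh-CBX7 replicate 3 (-0.24). HNRNPC, which binds runs of U and keeps cryptic exons out, fell to 685 ± 16.6 CPM in sh-CBX7, against 816 ± 6.37 CPM in sh-Control, a log2 fold change of -0.25. HNRNPUL1, HNRNPR and HNRNPA3 had log2 fold changes of -0.26, -0.24 and -0.21, all called lower, and the scaffold protein gene HNRNPU, at -0.09, was not called. Without sh-Control replicate 1, HNRNPU (-0.12) and HNRNPH1 (-0.15) were called lower.

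Length, gene copies and overlaps could touch the counts of these genes. The median annotated length was 3742 bases in the 36 that fell, 4748 in the 5 that rose, 4319 in the 26 not called and 5200 in all tested protein-coding genes. Counts assigned to 190 pseudogene rows of these families equalled 0.533% ± 0.068 of the family's own counts in sh-CBX7 and 0.575% ± 0.079 in sh-Control, with overlapping ranges. SNRPEP4, a copy of SNRPE, had 44, 43 and 51 counts in sh-CBX7 and 108, 88 and 99 in sh-Control libraries, and reads of SNRPE may be among them. LSM12P1, a copy of LSM12, had 299, 102 and 321 counts in sh-CBX7 and 324, 171 and 351 in sh-Control libraries. LSM12 itself had 659, 727 and 567 counts in sh-CBX7 and 569, 801 and 675 in sh-Control libraries. Reads of LSM12 may be among those of its copy, which leaves the LSM12 change uncertain. In all, 16 of the 73 genes overlap another counted gene, 14 of them on the opposite strand.

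The splicing machinery outside the 73 genes was described with 7 lists of other factors. Over all tested genes 27.2% fell and 26.1% rose. The SMN complex and its helpers methylate, assemble and import Sm proteins. Among their 16 tested genes 11 fell (68.8%) and 1 rose (6.25%), with a median log2 fold change of -0.33. GEMIN4 had a log2 fold change of -0.67, GEMIN5, which recognises small nuclear RNA, of -0.57 and WDR77, a partner of the methylating enzyme, of -0.53. Among 24 tested other regulators of alternative splicing 12 fell and 3 rose (median -0.17), led by RBM10 at -0.97, SRRM1 at -0.93 and SRRM2 at -0.85. Among 17 proteins of the U4/U6.U5 tri-snRNP 7 fell (41.2%) and 2 rose (11.8%), with a median of -0.15. SART1, which recruits the tri-snRNP to the forming spliceosome, had 22.7, 23.8 and 25.1 CPM in the sh-CBX7 libraries, against 88.1, 75.0 and 80.6 CPM in the sh-Control libraries. With a log2 fold change of -1.77 (edgeR adjusted p = 1.7e-14, SE 0.08) and groups far apart, its fall was second only to that of SNRPC among the genes named here. PRPF8, the core of the spliceosome, and PRPF4 fell by 0.82 and 0.78 on the log2 scale.

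Among 22 other U1, U2 and minor spliceosome proteins 7 fell (31.8%) and 6 rose (27.3%), with a median of -0.004. Both shares are near the 27.2% and 26.1% of all tested genes. SNRNP48 was at -0.80, the branch point protein SF1 at -0.52 and the helicase DHX15 at -0.47. Among 25 factors of the Prp19 complex and the catalytic steps 7 fell and 4 rose (median -0.04), where SLU7 rose by 0.51 and CDC5L and DHX38 fell by 0.41 each. Among 18 exon junction and nonsense-mediated decay factors 7 fell (38.9%) and 2 rose (11.1%), with a median of -0.11. UPF1 was at -0.62, ACIN1 at -0.50 and MAGOH at -0.46. Of 7 tested kinases of SR proteins 3 rose and 3 fell (42.9% each), with a median of 0.14. CLK1 and CLK4, which phosphorylate SR proteins in the nucleus, rose by 0.83 and 0.64, and SRPK1, which does so in the cytoplasm, fell by 0.34.

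**Figure D5:**
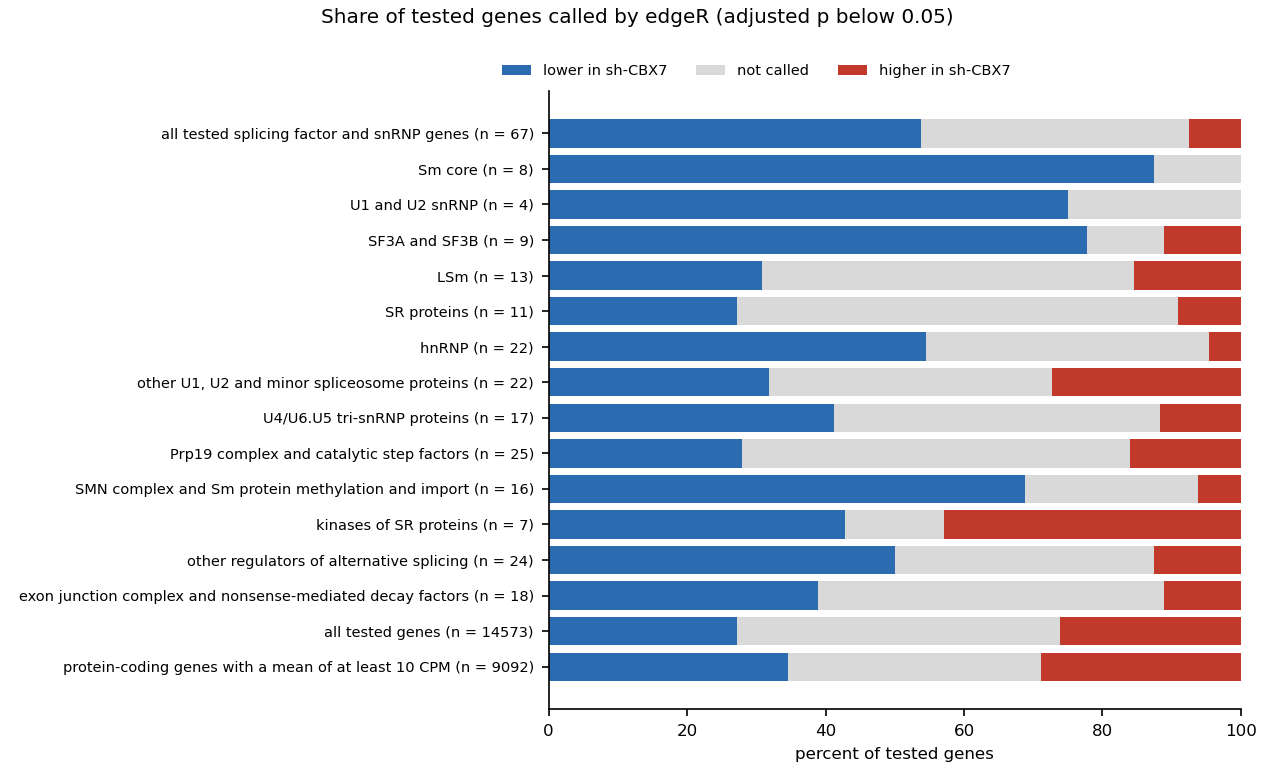
Percent of tested genes called higher and lower in sh-CBX7 (edgeR adjusted p below 0.05) in each role group of the splicing genes, in each list of other splicing factors and in all tested genes. All tested genes stand at 26.1% higher and 27.2% lower, and the 67 splicing genes at 7.46% higher and 53.7% lower.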

How the data were processed

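Messenger RNA selected with poly-T beads was made into libraries with a directional kit, per the labels' protocols. The deposited table holds raw counts per gene, as whole numbers, with gene lengths and coordinates; the submitters' processing notes list featureCounts 1.5.0-p3, HISAT2 2.0.5, Trimmomatic and FastQC. The order of those tools and the strand setting of the counting are not given in the sources used here. Those notes name hg19, but gene starts and ends in the deposited table are those of GENCODE 29 for 58724 of 58735 genes; GRCh38 is therefore the build of all positions. Columns named siCBX7 were matched by target and replicate number to the libraries labelled sh-CBX7.

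Genes passing filterByExpr of edgeR 4.0.16 (R 4.3.3) were TMM-normalised and compared with the quasi-likelihood test, unpaired, with Benjamini-Hochberg adjustment over all 14573 tested genes. The standard error (SE) is the size of the log2 fold change over the root of F. TMM factors entered the CPM values. No label says that replicates were separate cultures; p-values then cover only the spread among these libraries, which may be technical. Each pair of replicates differed by more than sampling noise, so each was kept as a sample. Intervals cover 95%. The fit was tested on simulated data for the same genes.

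Members and lists were chosen with earlier results of these data known. Values in every library are given for up to 8 called members with the largest change in each direction and a mean of at least 1 CPM, and for the member with the highest mean CPM of each of 6 role groups; LSM14B was added after its values were seen. From each of 7 lists of other splicing factors the 3 genes with the smallest p are named. Alternatives were 3 other normalizations, 2 low count filters, DESeq2 1.42.0, limma voom (limma 3.58.1), the replicate as a block, each library left out in turn, a minimum change, and protein-coding counts as the total for shares. Promoters are RefSeq windows on GRCh38.p14, matched by gene for 59 of 67 tested members, and 3' UTRs come from 1 GENCODE 29 transcript per gene.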

Additional observations from a re-analysis of the deposited data

How the results depend on the processing

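In 14 other fits, 31 of the 36 splicing genes that fell and 4 of the 5 that rose kept their call each time, and 0 of these 41 changed sign in the edgeR, DESeq2 or limma voom fits. The 5 that lost a fall in at least 1 fit were SF3B5, LSM7, SRSF10, SNRPB2 and HNRNPLL, each without at least 1 library; SNRPB2 (-0.16) and SRSF10 (-0.16) also lost it with upper quartile normalization. Of the 26 not called, 12 were called in at least 1 fit. Requiring a log2 fold change of at least 0.5 in size left 11 lower and 0 higher, and DESeq2, limma voom and an unadjusted p below 0.05 in edgeR also gave 0 higher. Upper quartile normalization gave a median of -0.16 over the splicing genes, and 0.04 over all tested genes. Leaving out 1 library gave 33 to 43 lower splicing genes, with 43 without sh-Control replicate 1, and 4 to 6 higher. Over all tested genes it gave 3584 to 4082 lower and 3398 to 3953 higher. The median over the splicing genes ran from -0.22 to -0.19. The difference in their share of counts ran from -0.23 to -0.19 percentage points, against -0.21 with all libraries. With the replicate number as a block, 38 splicing genes fell and 5 rose, among 4126 and 3972 genes in all. Deviations of same-numbered libraries correlated at 0.04 to 0.06 across genes, too little to treat them as pairs, and each library correlated best with its own number. Depth limits the genes under a few CPM, such as SNRPN, and poly-T selection leaves small nuclear RNAs and proteins unmeasured.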
